A study of Mus musculus with 2 samples.

Results

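The genes described here are 9 genes of sodium-conducting channels, chosen by their symbols out of 55536 annotated mouse genes. They comprise Scn1a, Scn2a, Scn3a, Scn8a and Scn9a, which code for pore-forming alpha subunits of voltage-gated sodium channels, Scn2b, Scn3b and Scn4b, which code for auxiliary beta subunits, and Nalcn. Nalcn codes for a sodium leak channel of the same superfamily that is not opened by depolarisation in the manner of the alpha subunits, so it is described apart from them. The tissue was labelled as a layer of hippocampus, without naming the layer. It came from male B6CASTF1/J mice, hybrids of C57BL/6J and CAST/EiJ, aged 18 to 20 months. Total RNA was sequenced in 1 group of 2 libraries, replicate 1 and replicate 2, each from 300 ng of RNA. The labels list both libraries under a shared donor record and leave it unstated whether the tissue of each is from an animal of its own, so the SDs given here may reflect technical spread only. No control group is among the samples, and with 2 libraries the smallest two-sided p of an exact sign-flip test is 0.5, so no p-value is given.

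Voltage-gated sodium channels open when the membrane depolarises and carry the inward current of the upstroke of the action potential. A large alpha subunit forms the pore and the voltage sensors, while beta subunits, single-pass membrane proteins with an immunoglobulin-like domain, tune gating and help to place the channels on the membrane. In hippocampal neurons the channels are densest at the axon initial segment, where ankyrin-G and beta-IV spectrin anchor them and FGF homologous factors bind their tails, whereas the leak channel carries a steady current that sets how close the resting potential lies to threshold.

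Replicate 1 held 34563482 expected counts over all genes and replicate 2 held 32370292, and the channel genes took 0.188% and 0.190% of them. In CPM, that is counts divided by library size, a gene without counts could still stand at up to 0.0868 (replicate 1) or 0.0927 (replicate 2), limits which rest on 3 counts and cover counting error only. All markers of excitatory neurons, inhibitory neurons and hippocampal fields were detected, with summed levels of 2059 and 2091, of 408 and 445, and of 1221 and 1278 TPM (transcript abundance corrected for length) in replicates 1 and 2. Levels are those of the gene table and its matching transcript table, called the first quantification, unless a second quantification, made per transcript directly from the reads, is named. None of the 4 sensory neuron markers reached 1 TPM in both libraries. The choroid plexus markers were the exception to close replicates, with a summed 36.4 TPM in replicate 1 and 694 TPM in replicate 2.

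Scn2a, Scn3a, Scn8a and Scn9a each carry a pair of neighbouring exons of 92 bases of which a transcript holds either the one or the other, the pair known from Scn2a as the neonatal form (first exon) and the adult form (second exon). Both code for part of the voltage sensor of the first domain. The second exons, and the single annotated exon of Scn1a at this place, are shown because the transcript shares described further on are given as shares with the second exon. The sequences are those of the GENCODE M21 transcripts on mm10 and thus of the C57BL/6J reference. Capitals mark the bases that differ from the second exon of Scn2a.
Scn2a second (chr2:65682690-65682781, plus strand): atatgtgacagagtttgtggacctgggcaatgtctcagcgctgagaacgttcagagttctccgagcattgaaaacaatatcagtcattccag
Scn3a second (chr2:65525695-65525786, minus strand): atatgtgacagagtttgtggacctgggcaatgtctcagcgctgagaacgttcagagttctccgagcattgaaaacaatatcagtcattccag
Scn8a second (chr15:100959603-100959694, plus strand): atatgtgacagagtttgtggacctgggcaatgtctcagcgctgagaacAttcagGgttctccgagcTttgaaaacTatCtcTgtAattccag
Scn9a second (chr2:66563336-66563427, minus strand): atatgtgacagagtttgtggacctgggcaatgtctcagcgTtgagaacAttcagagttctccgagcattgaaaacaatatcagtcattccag
Scn1a single (chr2:66332207-66332298, minus strand): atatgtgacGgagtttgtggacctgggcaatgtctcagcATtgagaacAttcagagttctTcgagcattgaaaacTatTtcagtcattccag

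Second exons and the single Scn1a exon differed from each other at 0 to 9 bases (median 7 over 10 pairs of genes). The second exons of Scn2a and Scn3a were identical over all 92 bases. Counting from 1 at the 5′ end of the exon, with the base of Scn2a first, the second exon of Scn9a differed from that of Scn2a by C41T and G49A. The second exon of Scn8a and the single exon of Scn1a each differed from it at 7 bases, and shared G49A and A76T.

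Scn1a and Scn8a have a further shared site of variation, the 3′ end of a large exon in the cytoplasmic linker between the first and second domains. There an upstream splice site leaves out 33 coding bases of Scn1a, or 84 with the furthest one, and 30 coding bases of Scn8a. The Scn8a segment between the upstream and the downstream splice site is given because the annotated protein lengths differ by it. Capitals mark the GT at which the intron starts when the upstream site is used.
Scn8a 30-base segment (chr15:100984046-100984075, plus strand): GTgaaaatagataaggcagctacagacagt

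All 9 genes were detected, meaning at least 1 TPM in both libraries, against 25.7% of all annotated genes and 57.5% of the 22028 protein-coding genes. The levels spanned from those of Scn2b, with 104 and 109 TPM in replicates 1 and 2, to those of Scn9a, with 1.37 and 1.33 TPM. The median over the 9 genes was 27.3 TPM, and the median over the 12673 detected protein-coding genes was 14.6 TPM. The 9 genes were chosen with earlier results of these data known, so these comparisons describe the chosen genes and test nothing. Because the tissue was measured in bulk, a low level from few cells of a type and a low level of RNA in each cell cannot be told apart.

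Among the alpha subunits, Scn2a, Scn8a and Scn1a made up most of the RNA and Scn3a and Scn9a little of it. Scn2a, the alpha subunit of excitatory neurons and unmyelinated axons, had 95.5 TPM in replicate 1 and 99.8 TPM in replicate 2, above 93.4% of detected protein-coding genes. Scn8a, which carries most of the current at the initial segment and at nodes in adult neurons, had 90.5 and 89.1 TPM. Both Scn2a libraries exceeded both Scn8a libraries, by a ratio of 1.09 ± 0.0455 (SD, n = 2).

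Scn1a, the alpha subunit on which fast-spiking interneurons depend and whose loss of function underlies Dravet syndrome, had 27.2 and 27.4 TPM. Its libraries lay close together and far below those of Scn8a, which stood 3.29 ± 0.0516 times higher. Scn3a, best known from the embryonic brain, had 12.9 and 13.0 TPM, again with no overlap, and Scn1a exceeded it 2.11 ± 0.00574 times. Scn9a, best known from sensory and sympathetic neurons, was the lowest of all 9 genes at 1.37 and 1.33 TPM, above only 2.19% of detected protein-coding genes. It nonetheless rested on 271 and 265 expected counts, well over the floor of 3.

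The alpha genes summed to 227 TPM in replicate 1 and 231 TPM in replicate 2 (229 ± 2.27). Scn2a took 42.6% ± 0.902 of that sum and Scn8a 39.2% ± 0.811, while Scn1a took 11.9% ± 0.0596, Scn3a 5.66% ± 0.0128 and Scn9a 0.589% ± 0.0182 (SD, n = 2). The order of Scn2a and Scn8a depends on the length correction: as counts without it, Scn8a led with 500.0 ± 0.539 CPM and Scn2a followed with 459 ± 10.03 CPM.

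**Figure D1:**
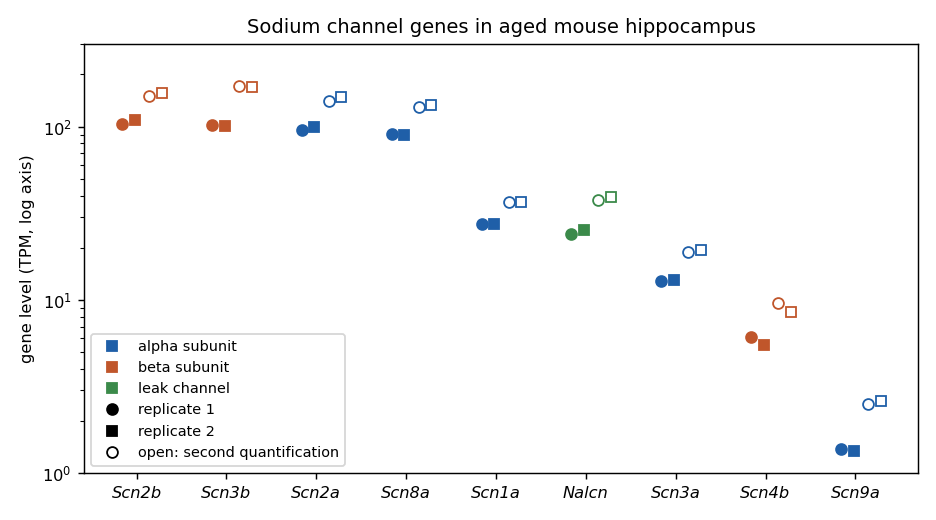
Level of each channel gene in TPM on a log axis, ordered by mean, with circles for replicate 1 and squares for replicate 2; filled symbols are the gene-level values and open symbols the second quantification. Scn2b, Scn3b, Scn2a and Scn8a lie together near the top, Scn1a and Nalcn form a second step, and Scn3a, Scn4b and Scn9a follow downwards.

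Among the beta subunits, Scn2b and Scn3b were as abundant as the leading alpha genes and Scn4b was scarce. Scn2b, whose product is bound to the alpha subunit by a disulfide bond, had 104 and 109 TPM in replicates 1 and 2. Scn3b, whose product binds without such a bond, had 103 and 101 TPM. The lowest Scn2b library lay above the highest Scn3b library by a narrow margin, with a ratio of 1.05 ± 0.0499, and the ratio of Scn3b to Scn2a was 1.04 ± 0.0459, both within 1 SD of equal levels. Scn4b, which is disulfide-linked like Scn2b and is a proposed source of the blocking peptide of resurgent current in Purkinje cells, had 6.13 and 5.49 TPM, and Scn2b exceeded it 18.4 ± 2.07 times. Scn2b and Scn4b are neighbours on chromosome 9, separated by 8324 bases, and share a strand.

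The alpha genes and these 3 beta genes summed to nearly equal levels. The beta genes came to 213 and 215 TPM (214 ± 1.92), which gave an alpha to beta ratio of 1.07 ± 0.00102. Of the beta sum, Scn2b held 49.8% ± 1.28, Scn3b 47.5% ± 1.04 and Scn4b 2.72% ± 0.236.

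The leak channel Nalcn had 23.9 TPM in replicate 1 and 25.2 TPM in replicate 2. It stood just under Scn1a, at a ratio of Scn1a to Nalcn of 1.11 ± 0.0374, and 1.90 ± 0.0586 times above Scn3a. In all, the library values of all 8 pairs of neighbours in the order of levels stood apart without overlap, but 4 of these steps were only 1.04-fold to 1.11-fold. The larger steps were 3.29-fold below Scn8a, 1.90-fold below Nalcn, 2.24 ± 0.191-fold below Scn3a and 4.30 ± 0.245-fold below Scn4b.

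The second quantification, made from the reads rather than from an alignment, gave higher TPM throughout and changed the order in 2 places. Its values were higher by a median of 1.63-fold in replicate 1 and 1.62-fold in replicate 2 over 12653 detected nuclear protein-coding genes. Relative to that median the channel genes lay between 0.825 ± 0.00163 for Scn1a and 1.17 ± 0.0567 for Scn9a. None of the 9 differed from the median by 1.5-fold in both libraries, as 4.63% of the compared genes did. In the second quantification Scn3b led with 171 and 170.2 TPM and Scn2b followed with 151 and 157 TPM. Nalcn, with 37.7 and 39.1 TPM, there stood above Scn1a, with 36.5 and 36.7 TPM. Which of Scn2b and Scn3b, and which of Scn1a and Nalcn, is the more abundant thus depended on the quantification, while the rest of the order was the same. Counting protein-coding transcripts only, with incomplete ones included, put Scn3b at 82.4 ± 2.72 TPM, below Scn2a at 92.8 ± 2.26 TPM and with libraries that overlapped those of Scn8a at 83.4 ± 1.04 TPM.

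The 2 libraries differed little in any channel gene. The log2 ratio of replicate 2 to replicate 1, from counts normalised by TMM, lay between -0.02 and 0.04 for Scn1a, Scn2a, Scn3a, Scn8a, Scn9a, Scn2b and Nalcn. Scn3b had 7493 counts in replicate 2 and 8414 in replicate 1, a log2 ratio of -0.09 with a 95% counting interval of -0.14 to -0.05. Scn4b had 618 counts in replicate 2 and 751 in replicate 1, a log2 ratio of -0.21 with a counting interval of -0.36 to -0.05. None of the 9 genes differed by 1.5-fold or more, where 2.26% of the 14887 genes with a mean of at least 1 CPM did (0.873% higher and 1.38% lower in replicate 2), and the central 95% of those genes lay between -0.45 and 0.36. With TMM, Scn3b and Scn4b were lower in replicate 2 by more than counting error, yet well inside that range. With 1 library on each side these differences have no replicate check.

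**Figure D2:**
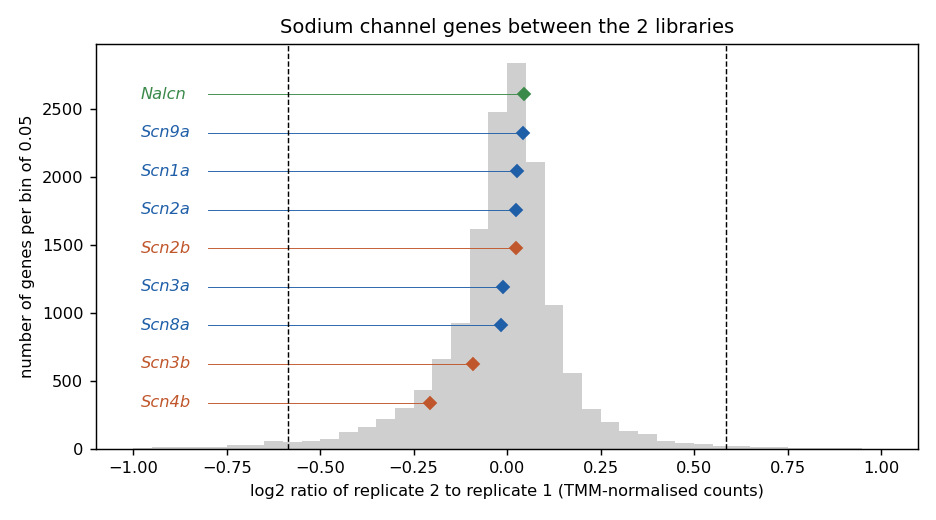
Number of genes per bin of the log2 ratio of replicate 2 to replicate 1 (grey bars, genes with a mean of at least 1 CPM), with a diamond at the ratio of each channel gene and dashed lines at 1.5-fold in either direction; genes are listed by ratio and the height of a diamond has no meaning. All 9 diamonds lie between the dashed lines, with Scn4b at -0.21 the furthest from 0.

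The 9 genes had 67 annotated transcripts, and most of the counts of every gene fell on transcripts with a complete coding sequence. Their share of the expected counts was between 91.9% for Scn1a and 100% for Scn2b and Scn4b. As a share of TPM it was lower, at 70.9% for Scn8a, 73.9% for Scn2a, 74.8% for Scn1a and 77.4% for Scn3b, since short fragments count for more after length correction. These shares depended on the quantification. The second gave 81.3% for Scn8a, 81.7% for Scn2a and 84.9% for Scn1a, but 71.4% for Scn3b. The main such fragments were Scn2a-204, Scn8a-212 and Scn1a-206, each with an incomplete coding sequence. Scn2a-204, of 1810 bases, held 21.1% ± 1.36 of the Scn2a TPM but 5.52% of its counts. Scn8a-212, of 2565 bases, held 16.7% ± 1.72 of the Scn8a TPM but 5.33% of the counts. Scn1a-206, of 1690 bases, held 16.1% ± 0.926 of the Scn1a TPM but 3.85% of the counts. In the second quantification their mean TPM shares were 8.08%, 5.39% and 0%. In Scn3b, noncoding transcripts took 18.9% of the TPM, led by the 704-base Scn3b-205 with 12.9% ± 1.28.

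**Figure D3:**
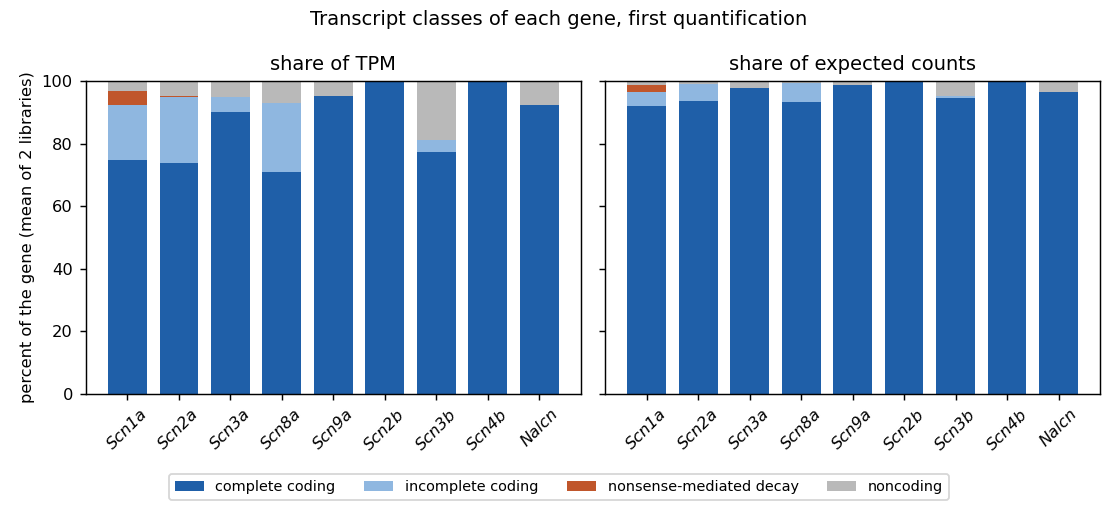
Share of each gene's TPM (left) and of its expected counts (right) held by transcripts with a complete coding sequence, an incomplete one, an annotation of nonsense-mediated decay or no coding sequence, as means of the 2 libraries in the first quantification. Complete coding transcripts hold over 90% of the counts of every gene, whereas incomplete and noncoding transcripts take over 20% of the TPM of Scn1a, Scn2a, Scn8a and Scn3b.

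By mean share, the leading transcript was the same in both quantifications for 6 of the 9 genes. For Scn1a it was Scn1a-203, with 34.7% and 49.1% of the TPM in replicates 1 and 2. Scn1a-201 held 35.5% and 24.5%, so it led narrowly in replicate 1. In the second quantification Scn1a-203 had a mean of 41.5%, and Scn1a-204 came next with 32.9%. Scn4b has only Scn4b-201, which codes for 228 amino acids. Nalcn-201, the only complete coding transcript of Nalcn with 1739 amino acids, held 91.5% and 93.1% of the Nalcn TPM in replicates 1 and 2. Scn2b-202 held 81.1% and 81.0%, and the second quantification gave it 100%; both Scn2b transcripts have the same annotated coding sequence, for 215 amino acids. Scn2a-201 held 50.4% and 53.1% of the Scn2a TPM, close to the 52.1% of the second quantification. Scn3a-202 held 76.5% and 83.6%, and the other complete transcript, Scn3a-201, codes for a protein of the same length.

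Leaders differed between the quantifications for Scn8a, Scn9a and Scn3b. For Scn8a the first named Scn8a-205, with 47.1% and 46.9% of the TPM in replicates 1 and 2, and the second named Scn8a-203, with 29.1% ± 0.658, although both have the same annotated coding sequence, for 1978 amino acids. For Scn3b they named Scn3b-203 with 27.6% ± 2.36 and Scn3b-201 with 42.3% ± 1.02, again with the same annotated coding sequence, for 215 amino acids. The transcripts of Scn9a rested on few counts, such as 172 with a posterior SD of 38.7 for Scn9a-201 in replicate 2. Its 1984-residue forms held 57.4% of the TPM in replicate 1 and 7.46% in replicate 2, while the 1975-residue form held 8.82% in replicate 1 and 57.5% in replicate 2. In the first quantification, libraries with nearly equal Scn9a levels as a gene thus had different leading transcripts. In the second quantification both had the same leader, Scn9a-203, which codes for 1973 amino acids and held 68.6% and 64.3% of the TPM in replicates 1 and 2; the first quantification lists it at 0 in both.

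Protein length forms of Scn1a and Scn8a differ by the 33-base and 30-base segments at their exon ends. The Scn1a transcript with the 33-base segment, Scn1a-203 with 2009 amino acids, held 48.0% and 63.4% of the complete coding TPM in replicates 1 and 2 (55.7% ± 10.9), and 48.8% ± 4.93 in the second quantification. The form that lacks it, with 1998 amino acids, made up the rest in the first quantification, and the form with the 84-base omission, with 1981 amino acids, was at 0 there and at 3.24% ± 1.70 of the gene in the second. In Scn8a the transcript with the 30-base segment, Scn8a-204 with 1988 amino acids, held 13.7% and 14.8% of the complete coding TPM of the full-length forms (14.3% ± 0.798). The second quantification gave it 31.8% ± 0.138. Across libraries and quantifications the long exon end was thus in 45.3% to 63.4% of complete Scn1a transcripts and in 13.7% to 31.9% of those of Scn8a, so the Scn8a share depended on the quantification and the Scn1a share varied between the libraries. A Scn8a form that skips a whole exon of 123 bases, Scn8a-208 with 1937 amino acids, was at 0 in replicate 1 in both quantifications. In replicate 2 it was at 0.460% of the gene, or 0.740% in the second quantification (means 0.230% ± 0.325 and 0.370% ± 0.523).

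The genes differed in which of the mutually exclusive exons their transcripts carried. Among transcripts with either exon of Scn3a, 94.2% of the TPM in replicate 1 and 96.1% in replicate 2 had the second exon (95.2% ± 1.37), with only the 365-base fragment Scn3a-203 for the first. In Scn8a 75.6% and 79.2% of the TPM had the second exon (77.4% ± 2.51). Both genes were thus on the side of the second exon in both libraries.

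Scn2a was on the other side, with 38.4% and 38.0% of the TPM on the second exon (38.2% ± 0.277). Replicates 1 and 2 gave 29.1% and 33.1% for Scn9a (31.1% ± 2.79). The library ranges of the 4 genes did not overlap. The Scn9a share rests on 1 transcript, Scn9a-207, with 69 and 74 expected counts and posterior SDs of 36.7 and 24.2 in replicates 1 and 2. Its distance from Scn2a is thus uncertain. In the second quantification the shares were 42.0% ± 0.181 for Scn2a, 100% for Scn3a, 86.9% ± 2.77 for Scn8a and 2.90% ± 4.10 for Scn9a, in the same order.

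Counting only complete coding transcripts, a choice made after seeing the data, moved Scn2a down to 20.6% ± 0.950 in the first quantification and 36.2% ± 0.729 in the second, and Scn8a up to 99.7% ± 0.455 and 96.6% ± 0.889. In the first quantification Scn2a then stood below Scn9a, whose transcripts with either exon are all complete. The annotation bears on these shares. The only complete Scn2a transcript with the second exon, Scn2a-205, has 226 annotated bases after the coding sequence, whereas Scn2a-201 and Scn2a-202, with the first exon, have 2618. In Scn8a, transcripts with the second exon have 5241 (Scn8a-205), 5250 (Scn8a-204) and 922 (Scn8a-203) such bases. Complete ones with the first exon have 5241 (Scn8a-201), 1005 (Scn8a-213) and 0 (Scn8a-208), so long and short ends occur with either exon. The shares are therefore those of whole annotated transcripts, to which reads far from the exon pair contribute, and not counts of reads over the exons themselves; how much the 3′ ends contribute was not tested.

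**Figure D4:**
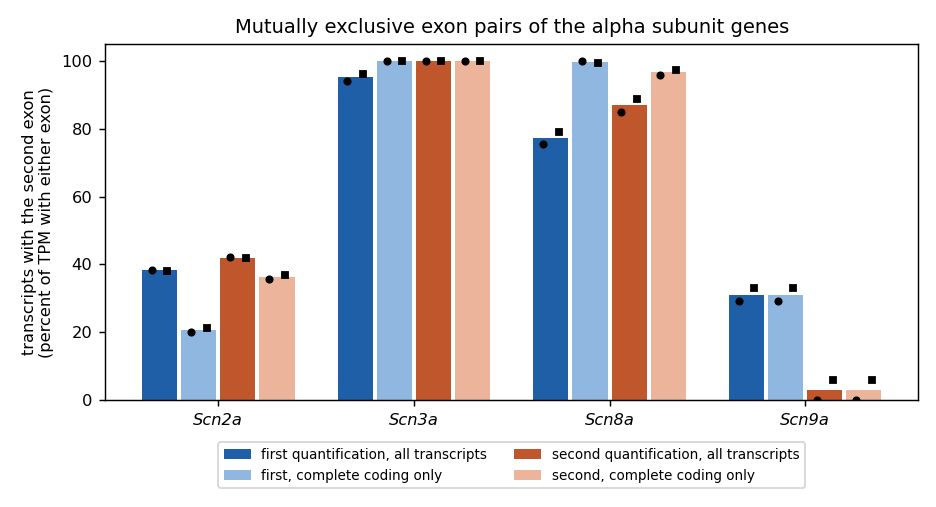
Percent of the TPM of transcripts with either exon of the pair that carried the second exon, for 4 alpha genes, in the first quantification (blue) and the second (orange), over all transcripts (dark) or complete coding ones (light); bars are means and points the libraries (circle replicate 1, square replicate 2). Scn3a and Scn8a stand at 75.6% or more in every setting, Scn2a between 19.9% and 42.1%, and Scn9a at 33.1% or less. The light Scn3a bars are fixed at 100%, since no complete Scn3a transcript with the first exon is annotated.

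Scn1a, Scn2a, Scn3a and Scn9a lie together on chromosome 2, within 1.18 Mb (65457118 to 66634962), and share stretches of sequence. Of all windows of 100 bases in a full-length transcript, 1.22% in Scn1a, 1.53% in Scn2a, 2.95% in Scn3a and 2.13% in Scn9a also occurred in a transcript of another gene, and none did in Scn8a, Scn2b, Scn3b, Scn4b or Nalcn. The deposited posterior SD of the gene counts was above 0 for these 4 genes only, between 3.28 and 7.89 counts, which is small beside their 265 to 15635 counts. Scn9a is overlapped on the other strand by Gm13629, an annotated antisense gene with 2.07 and 2.02 TPM, above the level of Scn9a itself. It held 48 and 43 counts, but whether the counting used strand is not given in the sources used here, so reads of this pair cannot be told apart with certainty.

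Of 4 other sodium channel genes, 0 were detected. The muscle channel gene Scn4a had 1 and 3 counts, and the sensory neuron channel genes Scn10a and Scn11a had 1 and 0 counts and 0 and 0 counts in replicates 1 and 2. Scn7a, the gene of an atypical channel that senses extracellular sodium, had 0.82 TPM in replicate 2 and 0.50 TPM in replicate 1, from 137 and 90 counts. Its log2 ratio of 0.68 (counting interval 0.29 to 1.06) made it the only gene with a mean of at least 1 CPM in these lists of relatives and partners to pass 1.5-fold, which it did not with spike-in scaling (0.50). All 5 choroid plexus markers were also higher in replicate 2, summing to 694 TPM there and 36.4 TPM in replicate 1, with Ttr at 672 and 29.9 TPM and none at 0, and their part in the Scn7a difference was not tested.

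The leak channel is known to work in a complex, and all 4 of its partner genes were detected. Unc80, a large scaffold of the complex, had 88.5 and 89.6 TPM, and Unc79, its other scaffold, had 19.4 and 20.5 TPM. The ratio of Unc80 to Unc79 was 4.47 ± 0.129, though both proteins belong to the same complex, and it was 3.19 ± 0.130 in the second quantification. Fam155a, which codes for a membrane subunit that helps the channel to reach the surface, had 46.7 and 49.6 TPM, 1.96 ± 0.00675 times Nalcn, and its relative Tmem28, also called Fam155b, had 12.3 and 14.2 TPM. Nalcn at 24.6 ± 0.948 TPM lay between its partners, above Unc79 and Tmem28 and below Unc80 and Fam155a.

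All 5 partners of the axon initial segment and all 4 FGF homologous factors were detected. Ank3, the gene of ankyrin-G, stood at 168 ± 0.0141 TPM, and Sptbn4, the gene of beta-IV spectrin, at 52.1 ± 0.297 TPM. The adhesion genes Nrcam and Nfasc stood at 202 ± 9.05 and 54.4 ± 2.67 TPM, and Trim46, which organises the microtubules of the proximal axon, at 34.0 ± 0.0778 TPM. Among the FGF homologous factors, which bind the tail of the alpha subunits and shape inactivation, Fgf13 led with 87.8 ± 3.54 TPM and Fgf12 followed with 59.8 ± 3.04 TPM. Fgf14, the factor whose mutation causes a form of spinocerebellar ataxia, stood at 13.6 ± 0.679 TPM and Fgf11 at 11.1 ± 0.403 TPM, and the libraries of these 4 genes did not overlap.

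**Figure D5:**
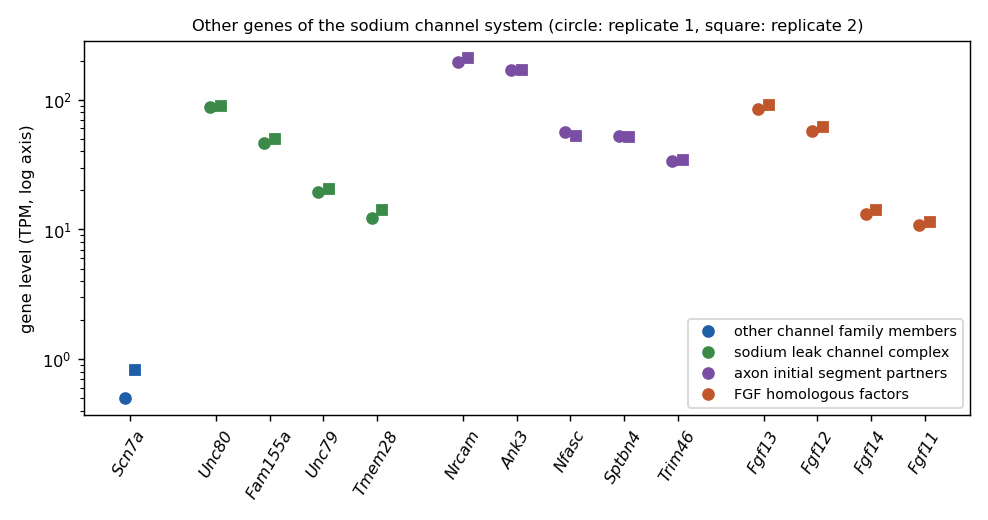
Levels in TPM on a log axis of genes related to the channels by family, complex or place, with circles for replicate 1 and squares for replicate 2; genes under 0.1 TPM (Scn4a, Scn10a and Scn11a) are not drawn. Nrcam and Ank3 stand highest, and Scn7a shows the widest gap between the libraries.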

How the data were processed

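The genes and lists described here were chosen with earlier results of these data known. Per the notes deposited with the files, reads were compared with mm10 and GENCODE M21. Names and versions of the tools were not given in the sources used here. Going per the file headers, the authors deposited an expected count and a TPM per gene and per transcript, each transcript's percent of its gene and a posterior SD of the count as a score (first quantification), and from the reads directly an estimated count and a TPM per transcript, summed here per gene (second quantification). The 2 columns of each kind share a unit, and no other sample's column was used. Whether counting used strand is not stated, and alleles were not analysed here.

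Levels are the authors' deposited TPM, with mean and SD over the 2 libraries. The genes named are the 9 members, the lists of relatives and partners, and transcripts with at least 5% of a gene in either quantification; some listed genes and some exon sequences are not reported here. Tmem28 was matched to Fam155b by RefSeq synonyms. Exon pairs were found in the annotation as neighbouring internal exons of equal length, within 3 bases, never together in a transcript. Expected counts were rounded and normalised by TMM in edgeR 4.0.16 (R 4.3.3) with a prior count of 0.5, and, as an alternative, by DESeq2 1.42.0 size factors or the ERCC spike-ins; intervals cover counting error only. The ratio step was tested on simulated data. Python 3.11.15, pandas 2.3.3, numpy 2.4.6 and matplotlib 3.10.9 were used.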

Additional observations from a re-analysis of the deposited data

How the results depend on the processing

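All 9 genes stayed detected under every alternative run except a minimum of 2 TPM, which left 8, and none passed 1.5-fold between the libraries under any scaling, filter or quantification run. With spike-in scaling the median log2 ratio was -0.18 over all genes tested and -0.16 over the channel genes, against 0.00 and 0.02 with TMM. The ratios of 8 channel genes, all but Scn9a, then fell below their TMM counting intervals, with Scn3b at -0.27 and Scn4b at -0.38. The summed alpha TPM of 229 moved to 334 in the second quantification, 215 over coding transcripts and 550.5 after rescaling over nuclear protein-coding genes, and to 1172 CPM; the summed beta TPM of 214 moved to 333.7, 195 and 514, and to 597 CPM. The alpha to beta ratio became 1.00, 1.10 and, as CPM, 1.96. Scn2a held 39.2% of the alpha sum as CPM, where Scn8a led. Scn2b held 46.1% of the beta sum in the second quantification, where Scn3b led with 51.2%, and 56.8% as CPM and 54.7% over coding transcripts, where 7 of 8 neighbours stood apart. In the second quantification Scn3a-202 held 90.1%, Scn8a-205 22.2%, Scn2b-202 100% and Nalcn-201 87.1%. The second-exon share moved as the report gives, to 42.0% for Scn2a, 100% for Scn3a, 86.9% for Scn8a and 2.90% for Scn9a. Over complete coding transcripts it was 20.6% and 36.2% for Scn2a, 99.7% and 96.6% for Scn8a, and 2.90% for Scn9a in the second. For Scn3a it was 100% in both, fixed by the annotation, which has no complete transcript with the first exon. With 2 libraries, leaving out either gives the value of the other; of the values recomputed, 1 moved by over 1.5 times, the 33.3% of Scn9a-201, to 57.4% without replicate 1 and 9.13% without replicate 2. The causes were not tested. The transcript shares of Scn9a rest on 271 and 265 counts. No paired analysis was possible because there is 1 group.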
